A study of Gallus gallus with 2 samples.

Results

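The chromatin contacts described here are the long ones of a single 50 kb window of chicken chromosome 3, from 41620001 to 41670000 (galGal5, the build named in the submitters' processing notes), which is labelled a boundary of the DACT2-SMOC2 locus and is called the hub below. A contact was counted when exactly 1 of its fragment midpoints lay in that window and the midpoints were 100 kb to 1 Mb apart. There were 2034 such pairs among the 100914 fragment pairs listed for the interzone, which is 2.02% of the list, and 1097 among the 71542 listed for the phalange, which is 1.53%. The window was chosen from measured contacts of these same lists, so its number of long contacts and its place among other windows are given as a description with no test.

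Both tissues came from White Leghorn chick embryos at stage HH32, after 7.5 days of incubation. The interzone, the strip of cells where a digit joint will form, and the phalange, the skeletal element beside it, were dissected from digit 3 of the hindlimb. Each was measured in 1 library of 1000000 cells from 100 pooled specimens, so there is no replicate error, and the interzone and phalange values compare 2 libraries and not 2 tissues. The assay was targeted chromatin capture, in which cross-linked chromatin is cut, here with ApoI, ends that lie close together are joined, and the products of a locus are enriched with baits and sequenced.

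The genome of vertebrates is folded into domains within which sequences meet often, and the borders between them, many of them held by CTCF and cohesin, can meet each other over long distances. Enhancers mostly act on promoters of their own domain, so the position of a border limits which gene an enhancer can reach. SMOC2 encodes a secreted calcium-binding protein of the matrix around cells, and DACT2 encodes a protein that binds Dishevelled and modulates Wnt and TGF-beta signalling. Gene positions in galGal5 and the genome sequence were not used here, so the windows below are given by coordinate, without genes and without sequence.

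The authors' lists give each pair of restriction fragments once, with a value named signal whose divisor is not stated. The number of listed pairs was the main measure and summed signal the second. Read depth is unknown, and 95% intervals of numbers of listed pairs (exact Poisson) or of shares (Wilson) reflect only the counting error of pairs taken as independent. After adjacent fragments were removed, 94492 interzone pairs and 65117 phalange pairs remained, of which 38208 and 24973 were 100 kb to 1 Mb apart. The expected number of pairs was taken from the distance and from the total number of pairs of each 10 kb bin. For the other windows of 50 kb compared below, the median of observed over expected was 0.961 for the interzone and 0.955 for the phalange. In simulated lists this expectation came out too high for the hub, so that partner windows drawn without enrichment had ratios under 1, and the hub's ratios below may be too low. Values from bin totals fitted until expected and observed totals matched are called balanced below. They are set beside the hub's overall ratio and in the plot of the partner profile. The simulated lists were drawn from balanced totals, so balanced values came closer to 1 there by construction. The simulation therefore cannot show which expectation suits the real lists better.

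The hub took part in more long contacts than any other window with 1 Mb of list on both sides in the interzone, and in the second largest number in the phalange. Its 2034 interzone pairs were set against 985 to 1817 pairs (median 1357) in the other viewpoints of 50 kb. Its 1097 phalange pairs were set against 656 to 1261 (median 890). With the hub, 28 viewpoints were compared. The hub also holds more fragments than most of them, 127 against 55 to 147 (median 100) in the others, and these numbers of pairs are not corrected for that. The phalange window with more pairs was 41970001 to 42020000, which is itself one of the hub's strong partners. The hub's pairs were 5.32% of all interzone pairs at these distances (Wilson interval 5.10 to 5.55) and 4.39% of those of the phalange (4.15 to 4.65).

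Against the expectation from distance and bin totals, the excess was small. Observed over expected was 1.08 in the interzone (2034 against 1889 pairs, interval 1.03 to 1.12) and 1.01 in the phalange (1097 against 1087, 0.950 to 1.07), which placed the hub second and seventh among the 28 viewpoints. With balanced totals the interzone ratio was 1.21 and the phalange ratio 1.14, the highest of the 28 in both libraries, where the others reached 1.14 and 1.11. By summed signal the hub had 0.687 in the interzone and 0.361 in the phalange, again the highest of the 28 in both, but its signal over expected was 1.03 and 0.887, eleventh and eighteenth. The place of the hub as a whole thus depended on the measure and the expectation used.

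The window was set against its label by its shorter contacts, since short-range contacts are usually few at a boundary. From 20 kb to 100 kb the hub had 383 interzone pairs and 183 phalange pairs. These were 0.449 and 0.485 times the expected number, the lowest ratio of the 28 viewpoints in both libraries. The expected number here also holds pairs with both ends in the viewpoint, which were left out of the observed number. The ratios of all 28 viewpoints at these distances are therefore too low, by an amount that was not worked out and can differ between viewpoints. The hub's last place is therefore uncertain too, and nothing is read from it about the label. Bin totals include pairs at all distances, so the ratios at short and at long distances are not independent.

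**Figure D1:**
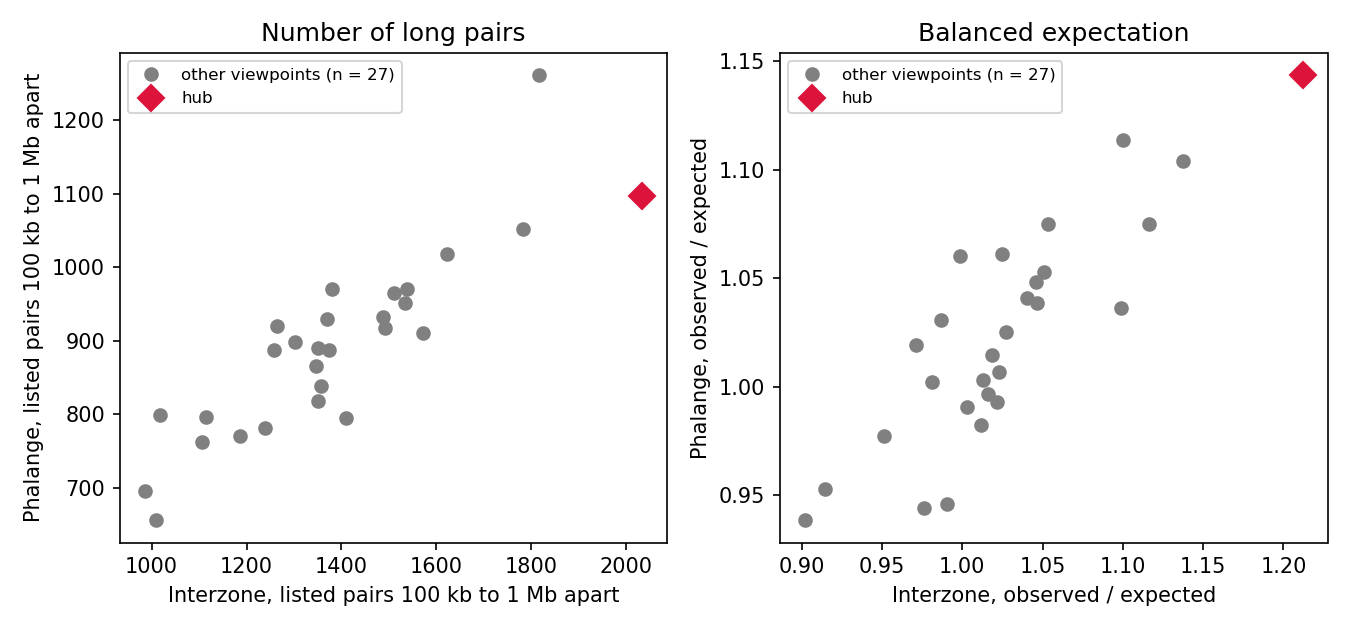
Each point is a 50 kb viewpoint, with the interzone value on the horizontal axis and the phalange value on the vertical axis, as numbers of listed pairs 100 kb to 1 Mb apart on the left and as observed over expected with balanced bin totals on the right. The hub (red diamond) has 2034 interzone and 1097 phalange pairs, and its balanced ratios of 1.21 and 1.14 are the highest on both axes.

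Partners lay on both sides of the hub. The interzone had 1128 pairs toward higher coordinates and 906 toward lower ones, and the phalange had 580 and 517. The share toward higher coordinates was 55.5% in the interzone (Wilson interval 53.3 to 57.6) and 52.9% in the phalange (49.9 to 55.8), while 49.4% of the 427136 possible fragment pairs point that way. Fisher's exact test (two-sided) on the sides, library against library, gave an odds ratio of 1.11 and p = 0.176. Both shares lay inside the span of the other viewpoints, which ranged from 32.4% to 67.2% in the interzone and from 37.9% to 65.1% in the phalange.

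The profile of partners was uneven. In both libraries the hub met its nearest long-range partners on the lower side less than expected and several windows 200 kb to 450 kb away more than expected, with a peak on each side. For pairs 200 kb to 400 kb apart toward higher coordinates, the interzone held 454 pairs where 274 were expected, a ratio of 1.66 (interval 1.51 to 1.82), which was the highest of the 28 viewpoints, the others reaching 1.43. The phalange held 231 where 164 were expected, a ratio of 1.41 (1.24 to 1.61), the second of 28, with another viewpoint at 1.48. Toward lower coordinates at the same distances the ratios were 1.08 and 1.11, eighth and sixth of 28. Pairs 100 kb to 200 kb apart toward lower coordinates were few, with ratios of 0.71 in the interzone and 0.63 in the phalange. Beyond 400 kb all ratios lay between 0.93 and 1.12, near those of other viewpoints.

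**Figure D2:**
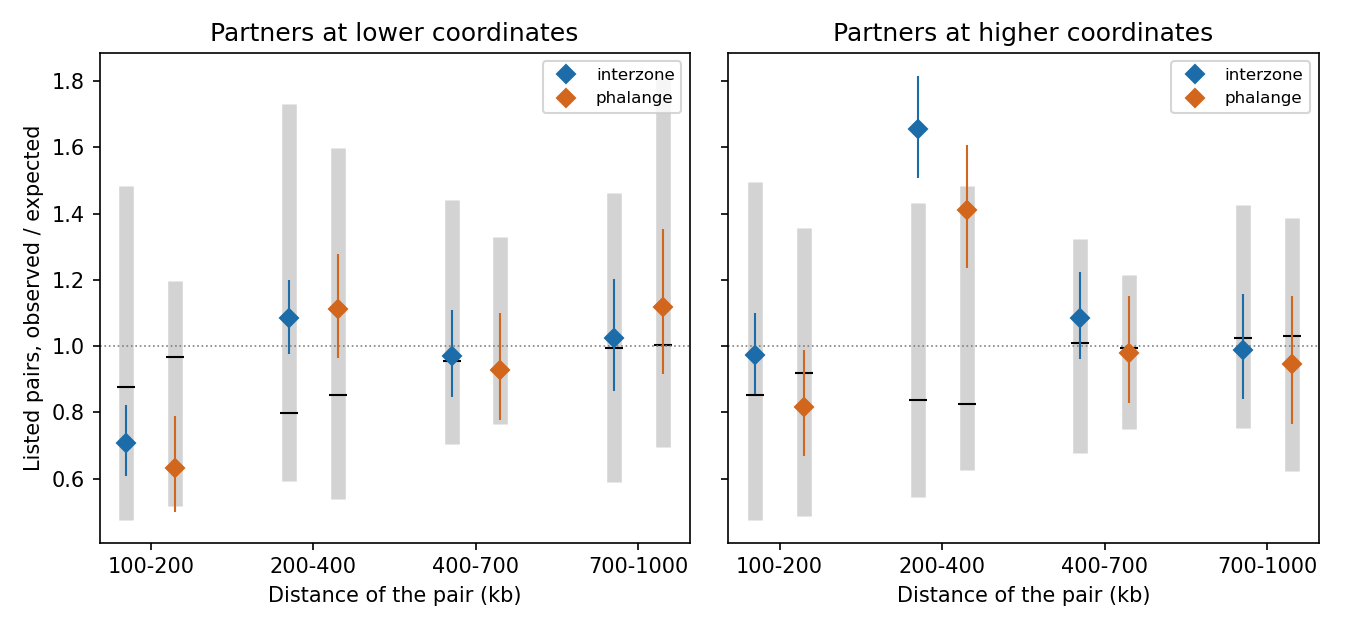
Observed over expected listed pairs of the hub (diamonds, with exact Poisson 95% intervals) by distance of the pair in kb, for partners at lower coordinates on the left and at higher coordinates on the right, in the interzone and the phalange (1 library each). Grey bars span the other 27 viewpoints and the black dashes are their medians. Only the 200 to 400 kb band toward higher coordinates has both hub values near or above the top of the grey bars, at 1.66 and 1.41.

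By listed pairs over expectation, the strongest partner at higher coordinates in both libraries was the window from 41870001 to 41920000, 250 kb away. The interzone list held 146 pairs between the windows where 62.6 were expected, a ratio of 2.33 (interval 1.97 to 2.74), and the phalange list held 61 where 38.2 were expected, a ratio of 1.60 (1.22 to 2.05). The ratio was the highest of 28 viewpoints for a partner at that distance in the interzone and the second in the phalange. These pairs did not come from a few ends: 70 of the hub's 127 fragments took part in the interzone and 39 in the phalange. By signal the ratios were 2.04 and 1.22. In the phalange other windows on this side were higher by signal, up to 1.78 at 41970001. Seen from that partner, the hub was the window it met most above expectation of 38 in the interzone and number 3 of 37 in the phalange.

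The next window, from 41920001 to 41970000, was the second partner in the interzone, with 92 pairs where 49.5 were expected (ratio 1.86, interval 1.497 to 2.28). In the phalange it had 39 where 32.1 were expected (1.22, 0.865 to 1.66), an interval that includes 1. This window holds only 55 fragments, the fewest of the 28 viewpoints. The window from 41970001 to 42020000 was equally marked in both libraries, with 119 interzone pairs where 80.4 were expected and 69 phalange pairs where 46.7 were expected, which are ratios of 1.48 and 1.48. The windows from 41820001 to 42020000 together, a stretch put together after its values had been seen, took 24.5% of the hub's interzone pairs and 23.0% of its phalange pairs. Their ratio was 1.61 in the interzone (499 pairs, 1.47 to 1.76) and 1.41 in the phalange (252 pairs, 1.24 to 1.60). By signal the ratios of the stretch were lower, at 1.46 and 1.19. Its first window, 41820001 to 41870000, had ratios of 1.22 and 1.34 by pairs but 0.993 and 0.964 by signal.

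A further peak, separated by a window near expectation, lay 450 kb away at 42070001 to 42120000. It held 85 interzone pairs where 53.4 were expected (ratio 1.59, interval 1.27 to 1.97) and 42 phalange pairs where 30.9 were expected (1.36, 0.979 to 1.84). The window between, from 42020001 to 42070000, had ratios of 1.04 and 1.05. The lowest ratio toward higher coordinates was 0.70 in the interzone, with 21 pairs at 42370001 to 42420000 (phalange 0.99), and 0.47 in the phalange, with 11 pairs at 42220001 to 42270000 (interzone 0.90).

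Toward lower coordinates the peak lay at 41220001 to 41320000. The window 400 kb away, from 41220001 to 41270000, held 76 interzone pairs where 58.0 were expected (ratio 1.31, interval 1.03 to 1.64) and 53 phalange pairs where 34.4 were expected (1.54, 1.15 to 2.01). The window 350 kb away, from 41270001 to 41320000, held 107 where 73.2 were expected (1.46, 1.20 to 1.77) and 47 where 37.6 were expected (1.251, 0.919 to 1.66). The higher of the adjoining windows was thus a different one in each library. By pairs their sum was alike, with ratios of 1.39 (interzone, 183 pairs) and 1.39 (phalange, 100 pairs). By signal this sum had lower ratios, 1.23 for interzone cells and 1.11 for phalange cells. Signal ratios were 1.33 (interzone) and 1.31 (phalange) for the window at 41220001. For the window at 41270001 they were 1.16 (interzone) and 0.973 (phalange), the latter under 1.

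Thinly covered excesses, mostly weaker by pairs, lay 750 kb to 850 kb below the hub. The window from 40870001 to 40920000 had 39 interzone pairs and 32 phalange pairs (ratios 1.23 and 1.502), the window from 40820001 to 40870000 had 30 and 19 (1.32 and 1.32), and the window from 40770001 to 40820000 had 27 and 14 (1.36 and 1.11). Of these 6 intervals only that of 40870001 in the phalange, 1.03 to 2.12, lay above 1. By signal the interzone and phalange ratios were 1.51 and 2.22 at 40870001, 1.65 and 1.35 at 40820001, and 1.26 and 0.825 at 40770001. The value of 2.22 was the highest signal ratio of the phalange profile. By listed pairs the lowest ratio of the whole profile was in the window from 41520001 to 41570000, 100 kb below. Only pairs at least 100 kb apart were counted in this window. It held 22 interzone pairs where 61.3 were expected and 12 phalange pairs where 32.8 were expected, ratios of 0.36 (0.225 to 0.543) and 0.37 (0.189 to 0.639). No other of the 28 viewpoints had so low a ratio at that distance in either library. The dip was not confined to the hub, however. The viewpoints starting at 41670001, 41720001 and 41770001, which lie farther from this window, also met it less than expected. Their interzone ratios were 0.62, 0.44 and 0.56, and their phalange ratios 0.47, 0.53 and 0.50.

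**Figure D3:**
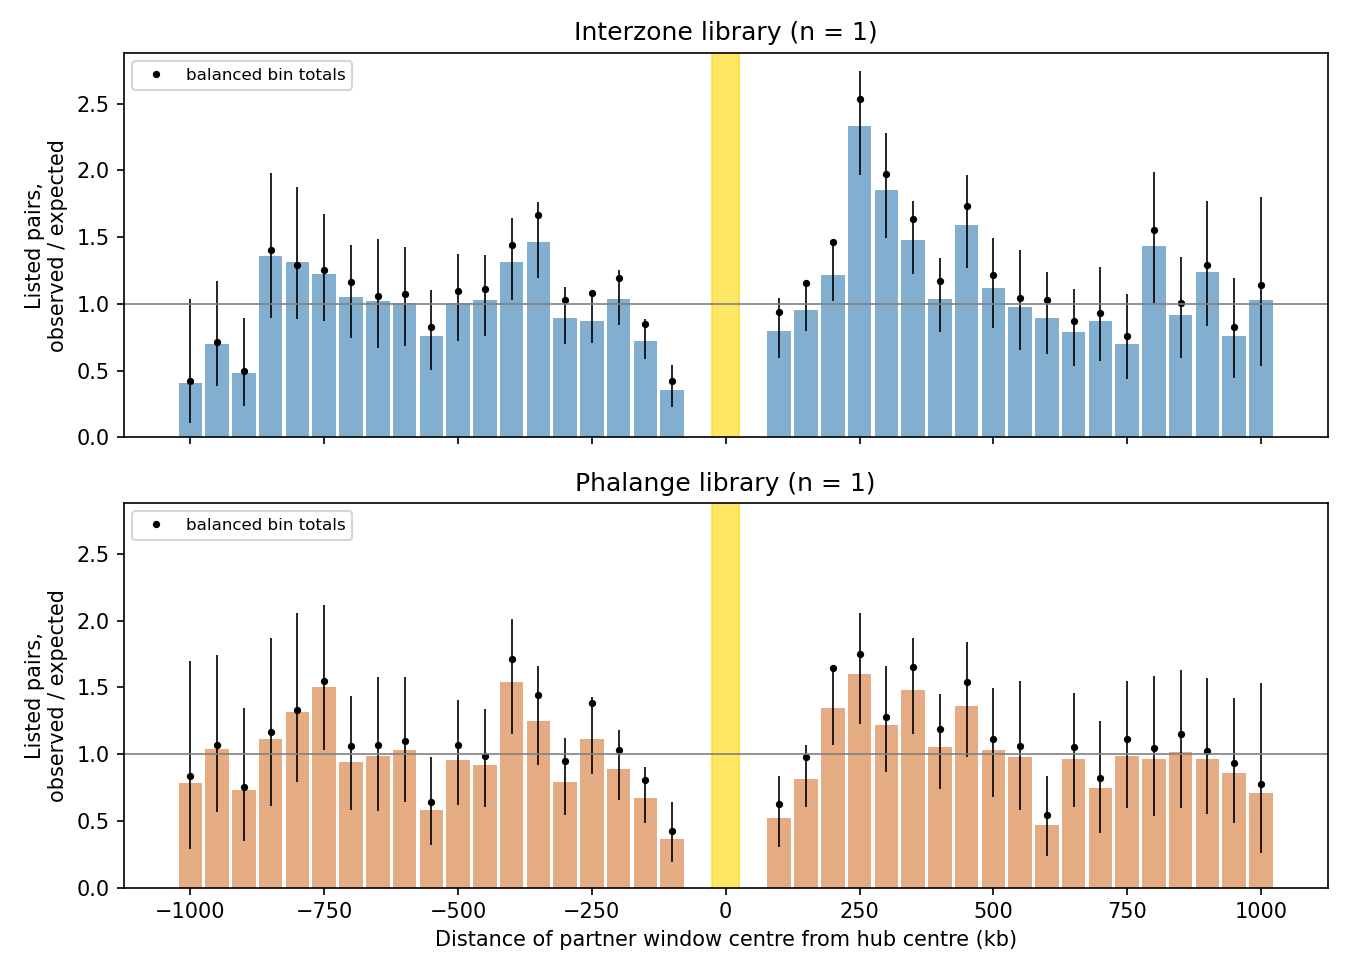
Observed over expected listed pairs between the hub (yellow) and each of its 38 partner windows of 50 kb, by distance of the window centre from the hub centre in kb, in the interzone (top) and the phalange (bottom), 1 library each. Lines are exact Poisson 95% intervals and black dots the values with balanced bin totals. Both profiles dip next to the hub, to 0.36 and 0.37 at 100 kb below, and peak 250 kb above, at 2.33 in the interzone and 1.60 in the phalange.

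Of the 38 partner windows, 6 were at least 25% above expectation in both libraries: those starting at 40820001, 41220001, 41270001, 41870001, 41970001 and 42070001. Of 1097 pairs of 50 kb windows across the locus with at least 5 expected pairs in each library, 10.9% were. In the interzone alone 9 of the 38 reached that excess, against 21.7% across the locus, and in the phalange alone 8, against 21.8%. The hub was chosen for such contacts, so nothing is read from these counts. Across the 38 windows the profiles of the libraries correlated at 0.747 by Pearson's r and 0.709 by Spearman's rho, with other viewpoints between 0.167 and 0.738 by Pearson and between 0.257 and 0.742 by Spearman, where 41270001 to 41320000 was above the hub. The windows share the hub and the local density of restriction sites, so the correlation describes the profiles and carries no p.

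At 10 kb resolution, 84 partner bins had at least 5 expected pairs in each library, and 5 of them, picked after their values had been seen, were at least 50% above expectation in both. The share of all pairs of 10 kb bins in the locus that reach this mark was not counted, so nothing is read from the number. The highest was 41890001 to 41900000, with 61 interzone pairs where 22.1 were expected and 27 phalange pairs where 13.2 were expected, ratios of 2.76 and 2.04. The bin from 41870001 to 41880000 had ratios of 2.15 and 1.81, and that from 41980001 to 41990000 had 1.73 and 1.65. On the lower side, the bins 41240001 to 41250000 (1.72 and 1.95) and 41290001 to 41300000 (1.80 and 1.68) rose above the same mark.

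Most of the peaks within 450 kb were higher from the hub than from the windows beside it. These partner windows were picked for their high ratios from the hub, so the comparison favours the hub. The 3 windows on either side of the hub, reaching from 41470001 to 41820000, met the partner at 41870001 with ratios of 0.84 to 1.20 in the interzone, against 2.33 from the hub. In the phalange they ranged from 0.64 to 1.62, against 1.60 from the hub, and the highest was the window just above the hub, 41670001 to 41720000. For the partner at 41920001 they reached at most 1.253 in interzone cells and 1.19 in the phalange, against hub ratios of 1.86 and 1.22. For the partner at 42070001 they reached 1.19 and 1.20, against 1.59 and 1.36. For the lower peak at 41220001 they reached 1.14 and 1.23, against 1.31 and 1.54, while at 41270001 the phalange window just below the hub had 1.42 and the hub 1.251. For the far window at 40870001 the neighbours reached 1.70 for the interzone and 1.46 for the phalange, against hub ratios of 1.23 and 1.502, so the hub was not the highest in the interzone. At 40820001 they were above the hub in both libraries, reaching 1.99 and 1.54 against 1.32 and 1.32. At 40770001 they reached 1.42 and 1.04, against 1.36 and 1.11.

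**Figure D4:**
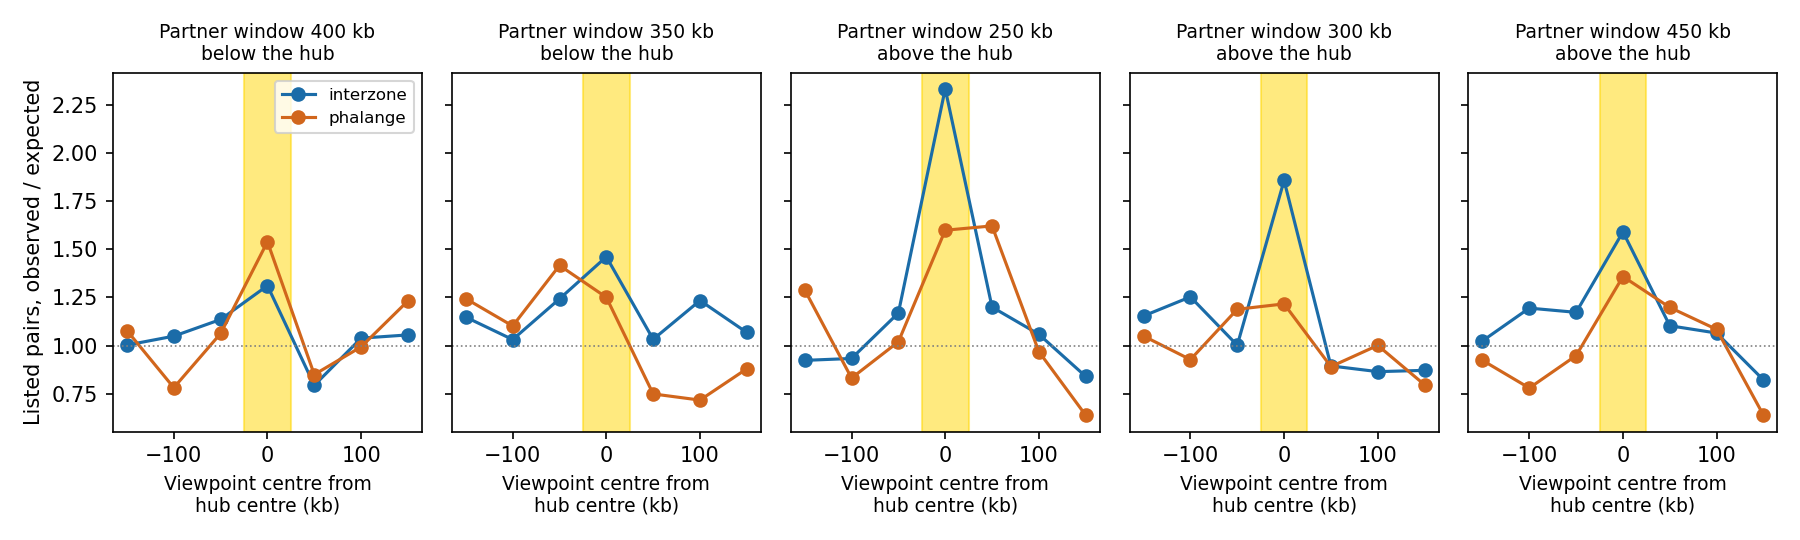
Observed over expected listed pairs of 5 partner windows (panels, named by their distance from the hub) seen from the hub (yellow, at 0 kb) and from the 3 viewpoints of 50 kb on either side, by distance of the viewpoint centre from the hub centre in kb, in the interzone (blue) and the phalange (orange). The interzone curve for the partner 250 kb above the hub has 2.33 at the hub and at most 1.20 elsewhere, while its phalange curve is as high in the window just above the hub.

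Contacts between partners on opposite sides, across the hub, were also counted. Among the windows named above, 9 pairs spanned the hub within 1 Mb, and all 9 were above expectation in the interzone (ratios 1.15 to 1.84, median 1.66), as were 6 of 9 in the phalange (0.634 to 1.84, median 1.31). The pair of 41270001 to 41320000 with 41970001 to 42020000 was the highest in both libraries, with 64 interzone pairs where 34.7 were expected and 45 phalange pairs where 24.5 were expected. Between named windows on the same side the ratios were mixed. On the lower side 4 of 7 pairs of them were above expectation in the interzone (0.472 to 2.14) and 3 of 7 in the phalange (0.849 to 2.12), and on the higher side 1 of 4 in the interzone (0.738 to 1.46) and 1 of 4 in the phalange (0.859 to 1.40). These windows were selected for their contacts with the hub, and each of the 9 pairs shares its windows with others, so the values are not independent of each other. The share of all window pairs above expectation was not counted, so nothing is read from these numbers.

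No difference between the libraries in a partner window of the hub passed a correction for the number of windows tested. Each of 1035 pairs of 50 kb windows with at least 20 listed pairs was tested by two-sided Fisher's exact test, interzone against phalange, against all other pairs at the same distance, with Benjamini-Hochberg adjustment. Of the 36 tested windows of the hub, 0 passed an adjusted p of 0.05, and across the locus 0% did. The smallest adjusted p of the hub was 0.495, for the partner at 41870001, where the interzone share was higher by 0.58 on the log2 scale (146 against 61 pairs, exact p = 0.00569). At an unadjusted p under 0.05 there were 6 of the 36 hub windows, against 5.80% of all 1035, and all 6 were higher in the interzone. They were the windows starting at 41270001, 41720001, 41770001, 41870001, 41920001 and 42220001. The hub was chosen from contacts of these same lists, so nothing is read from this number.

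The direction was shared by most of the profile. The interzone share was higher in 28 of the 36 windows, with log2 ratios from -0.51 to 1.16 and a median of 0.23, against a median of -0.003 over all tested pairs of windows. The windows share the hub, so they do not count as separate observations of this shift. The hub as a whole had 1.85 times as many long pairs in the interzone as in the phalange. This was the highest ratio of the 28 viewpoints, the others ranging from 1.27 to 1.77 with a median of 1.55. The numbers of windows above draw on the same pairs as this ratio. Since the hub was chosen from contacts of these lists, nothing is read from its place. No replicate library bears on whether the difference between the libraries would recur.

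Within the hub, the share of contacts toward higher coordinates differed between the bins at its ends. In the bin at the lower end, 41620001 to 41630000, 49.5% of 402 interzone pairs (Wilson interval 44.6 to 54.4) and 43.7% of 199 phalange pairs (37.0 to 50.7) pointed to higher coordinates. In the bin at the upper end, 41660001 to 41670000, these shares were 58.8% of 347 pairs (53.5 to 63.8) and 60.4% of 202 pairs (53.5 to 66.9). In the phalange these intervals do not overlap, and in the interzone they overlap slightly. Of the 199 phalange pairs of the lower-end bin, 25 came from the fragment 41620812 to 41622048, 19 of them toward lower coordinates. The shares without that fragment were not worked out, so the lack of overlap in the phalange may rest on it and is not read as a shift. The bins between had 51.2%, 59.3% and 58.1% in interzone cells and 55.7%, 50.2% and 55.1% in the phalange, so the change was not even across the hub. Toward lower coordinates, observed over expected was 1.13 and 1.20 in the bin at the lower end and 0.81 and 0.81 in that at the upper end. The distance limit also treats the ends unlike. The low window at 41520001 had 21.8 expected interzone pairs with the upper-end bin and 2.04 with the lower-end bin. How far this bears on the shares and ratios was not tested.

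The strong partner at 41870001 was met from the whole hub in the interzone, where the ratio was 1.83 to 2.80 in each of the 5 bins of 10 kb, with the most pairs, 47, from 41640001 to 41650000. In the phalange the bins ranged from 0.86 to 2.18 on 6 to 17 pairs each. The limits of the hub are not sharp. The bin just below it, 41610001 to 41620000, had 506 interzone and 277 phalange long pairs with ratios of 1.08 and 0.98, close to 1.13 and 1.06 in the first bin inside. At the other end the last bin inside had 1.00 and 1.03 and the next one outside 1.02 and 0.89. The distance limits were not marked by a step either. There were 25 interzone and 17 phalange hub pairs from 90 kb to 100 kb and 35 and 11 from 100 kb to 110 kb. At the far limit there were 5 and 5 just under 1 Mb and 4 and 8 just above it.

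Fragments of the hub differed widely in how many long pairs they had, and long fragments had more. The hub is cut into 127 fragments with a median length of 252 bp (5 bp to 2485 bp), against a median of 325 bp over all 6569. In the interzone 112 of them had at least 1 long pair and in the phalange 107. Fragments of 400 bp or more had on average 29.9 interzone and 16.6 phalange pairs, those of 200 bp to 400 bp had 17.2 and 8.31, and those under 200 bp had 4.55 and 2.58. Across the 127 fragments the numbers of the libraries followed each other (Spearman rho 0.921), and so did length and number (rho 0.859 in the interzone and 0.863 in the phalange), so the likeness between libraries is not separate from fragment length.

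**Figure D5:**
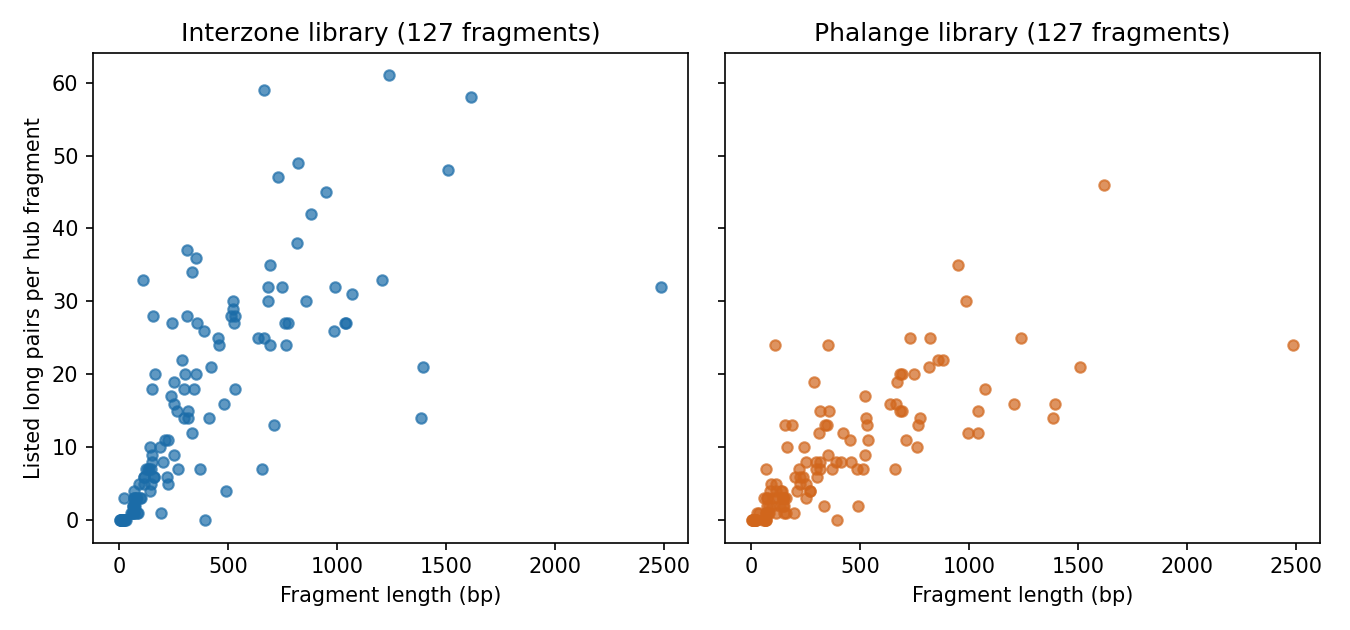
Number of listed pairs 100 kb to 1 Mb apart for each of the hub's 127 restriction fragments against fragment length in bp, in the interzone (left) and the phalange (right). Numbers climb with length in both libraries, with maxima of 61 for the interzone and 46 for the phalange, and the longest fragment, of 2485 bp, is not the highest in either.

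The 5 fragments with most pairs held 13.5% of the hub's interzone pairs and 14.7% of its phalange pairs. In the interzone the first was 41620812 to 41622048 (1237 bp), with 61 pairs, 32 of them toward higher coordinates, and it had 25 in the phalange, 6 of them toward higher coordinates. In the phalange the first was 41634360 to 41635976 (1617 bp), with 46 pairs, and it had 58 in the interzone, the third there. The fragment from 41641843 to 41642509 (667 bp) was second in the interzone, with 59 pairs, and had 19 in the phalange. The other interzone leaders were 41650427 to 41651247, with 49 pairs, and 41663641 to 41665147, with 48. In the phalange, 41627668 to 41628618 had 35 pairs and 41636337 to 41637323 had 30, and the fragments starting at 41620812, 41629897 and 41650427 were level at 25.

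On the partner side, the hub met 1245 fragments in the interzone, 35.0% of the 3553 within reach, and 810 in the phalange, 22.8%. Of these, 769 interzone and 605 phalange fragments met a single hub fragment, and 78 and 16 met 4 or more. The partner met by most hub fragments in both libraries together was 41871894 to 41872776 (883 bp), with 11 interzone and 2 phalange hub fragments. The fragment beside it, 41872783 to 41875206 (2424 bp), had the opposite order, 3 and 7. The fragment from 41895650 to 41896123 (474 bp), in the highest bin of the profile, met 6 and 5. The libraries had 475 partner fragments in common, which is 38.2% of those of the interzone and 58.6% of those of the phalange. Neither the overlap of other viewpoints nor that expected from the numbers alone was worked out, so these shares are not read as likeness.

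Exact fragment pairs seldom recurred, and few of the possible ones were listed at all. Of the 427136 possible hub pairs, 0.476% were listed for the interzone and 0.257% for the phalange. In both lists were 14 of the hub's long pairs, which is 0.688% of those of the interzone and 1.28% of those of the phalange. The overlap expected from the listed shares was not worked out, so the number is not read as high or low. Other viewpoints shared between 0.655% and 1.77% of their interzone pairs and between 1.01% and 2.49% of their phalange pairs, so the hub was near the bottom of the 28 in both. By number of shared pairs the hub was number 17 of 28, the others having 9 to 25. Of the 14 pairs, 7 lay on each side, and 10 were under 400 kb apart. The pair with the highest lower value joined 41663641 to 41665147 with 41946809 to 41947547, 283 kb above, with an interzone signal of 0.000455 and a phalange signal of 0.000489. The next joined 41624941 to 41627425 with 41291622 to 41294988, 333 kb below, with 0.000430 and 0.000436. Both of these fall in the peaks described above. The third joined 41624546 to 41624934 with 41168037 to 41169170, and the last of the 5, at 102 kb and 113 kb, joined the hub to 41727387 to 41728628 and to 41519060 to 41519881.

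The deposited signal of a hub pair was similar on both sides and in both libraries. The interzone median was 0.000268 and the phalange median 0.000264, against 0.000257 and 0.000248 for the other pairs at these distances. By side it was 0.000266 toward higher and 0.000272 toward lower coordinates in interzone cells, and 0.000270 and 0.000260 in the phalange.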

How the data were processed

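Each tissue's contacts were deposited as 1 list of ApoI fragment pairs with a signal per pair, which is how the file headers of the authors' interzone list name that column. What the signal was divided by is not given in the sources used here. Per the submitters' processing notes, FastQC and BWA were used and the build was galGal5, with no versions stated. Pairs of adjacent fragments were left out, and 10 kb bins and 50 kb windows were used. The expected number of a bin pair was the mean at its distance times the product of both bin totals, divided by the mean of that product. Ratios were called at 25% above expectation where at least 5 pairs were expected. Partner windows named are the 3 highest and the 1 lowest per side and library, fragments named are the 5 with most pairs, and pairs named are the 5 in both lists with the highest lower signal. Stretches and 10 kb bins were picked after their values had been seen. The window, its contacts and these rules were chosen with earlier results of these data known. Python 3.11.15, pandas 2.3.3, scipy 1.17.1 and statsmodels 0.14.6 were used. The computation was tested on data simulated from balanced totals, where the expectation from plain bin totals was too high for the hub. Alternatives changed the measure, the window limits, the distance limits and the bin totals.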

Additional observations from a re-analysis of the deposited data

Results flagged for a closer look

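Hub contacts outside the distances studied were looked at because they lie outside the main measurement. From 20 kb to 100 kb there were 383 pairs in the interzone, 0.449 times the expected number (interval 0.405 to 0.497), and 183 in the phalange, 0.485 times (0.418 to 0.561). Both were the lowest of the 28 viewpoints, the others ranging from 0.517 to 0.909 and from 0.552 to 0.896. They were also the lowest with balanced totals, at 0.539 and 0.587. Balanced totals make expected and observed totals of a bin match, so an excess at 100 kb to 1 Mb goes with a deficit elsewhere. The balanced values are therefore no separate evidence of few short contacts. From 20 kb to 100 kb the expected number also holds pairs with both ends in the viewpoint, which were not counted as observed. All these ratios are therefore too low, by an amount that can differ between viewpoints, so the hub's place at these distances is uncertain too. Over 1 Mb there were 414 interzone pairs, 0.844 times the expected number (0.765 to 0.930), and 277 phalange pairs, 0.862 times (0.764 to 0.970). These were the lowest of the 28 in the interzone and the lowest but 1 in the phalange. Plain bin totals hold pairs at all distances too, so the hub's many pairs from 100 kb to 1 Mb raise the number expected over 1 Mb. The low ratios over 1 Mb are therefore no separate finding.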

How the results depend on the processing

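The ratio of the hub's long pairs to expectation, 1.08 in the interzone and 1.01 in the phalange, was 1.03 and 0.887 by summed signal, 1.16 and 1.10 with a lower distance limit of 200 kb, and 1.21 and 1.14 with balanced totals, and in the interzone it was 1.13 with an upper limit of 500 kb and 1.17 with fragment numbers in place of bin totals. The hub's place among the 28 viewpoints, 2 in the interzone and 7 in the phalange, became 11 and 18 by summed signal, 8 and 15 with fragment numbers, 1 and 2 with bin totals from pairs 20 kb or more apart, 1 and 3 with the limit of 500 kb, and 1 and 1 with balanced totals. It was 1 in the interzone with the window shifted 10 kb to lower coordinates and 3 in the phalange with the limit of 200 kb. The signal ratio became 1.22 in the interzone and, changing sides of 1, 1.16 in the phalange with balanced totals, and the cause was not tested. The interzone share toward higher coordinates was 52.3% with the window shifted 10 kb to lower and 58.4% with it shifted 10 kb to higher coordinates. Windows 25% above in both libraries, 6 with windows of 50 kb, numbered 17 with windows of 25 kb, 2 with windows of 100 kb and 1 at 50% above. The number of windows compared changes with their size. Shares across the locus were not counted for these alternatives, so nothing is read from the change in number. The number of hub windows past an adjusted p of 0.05 was 0 under every alternative run with Fisher's exact test, with 3 to 6 at an unadjusted p under 0.05, and the profile correlation stayed between 0.670 and 0.841. Of 216 values of named windows under an alternative, 209 lay in the counting interval of the reported value and 7 outside it. On the other side of 1 lay 11, all of windows whose reported interval included 1, and 0 of the 120 values of windows whose interval excluded it. These counts include alternatives that moved only the distance limits. Such a move cannot change the ratio of a window that stays wholly inside the limits, so those values were the same by construction.

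No paired analysis was possible because each tissue had 1 library, and for that reason no library was left out in turn. Pairs are not independent and read depth is unknown, so intervals are too narrow by an unknown amount.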
